A study of Caenorhabditis elegans with 3 samples.

Results

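The lbp genes lbp-1 to lbp-9 of Caenorhabditis elegans encode lipid-binding proteins of the fatty acid-binding protein family. They were taken by their locus name in the deposited tables, which gave 9 genes of 45343 features. All 9 names matched the RefSeq symbol of the same sequence name, all 9 genes are annotated as protein-coding, and all 9 passed the filters used for the comparisons. RNA came from whole animals of synchronised cultures at the L4 larval stage. The strains were ZG24, which carries the ia03 allele of ahr-1, CZ2485, which carries the ju145 allele of ahr-1, and the wild type N2. With a single library from each strain there is no replicate error, no difference between strains was tested, and any difference may be one between single cultures. The gene ahr-1 encodes the worm homologue of the vertebrate aryl hydrocarbon receptor, which regulates transcription. Its own FPKM, a fragment count corrected for transcript length and library size, was 0.699 in ia03, 0.569 in ju145 and 0.664 in wild type. These levels lie below the FPKM of 1 required for the comparisons and cover the gene as a whole, so they do not check the strain labels.

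Fatty acid-binding proteins are small barrel-shaped proteins that hold a fatty acid or a similar lipid in an inner pocket. They keep these poorly soluble molecules in solution, carry them between membranes and organelles, and in some cases bring them to nuclear hormone receptors. In the worm, whose intestine is the main fat store, LBP-8 is known to carry a lipid signal from lysosomes to the nucleus, where the nuclear hormone receptors NHR-49 and NHR-80 act. LBP-3 is known as a secreted carrier of a lysosomal lipid signal to neurons, and LBP-5 has been linked to fat storage together with NHR-49.

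Most lbp genes were abundant in L4 animals, and as deposited each held much the same level in the 3 libraries. The widest gap between 2 libraries as deposited, 1.35-fold, was in lbp-9, and its size depends on the scaling of the libraries, as given below. The most abundant, lbp-6, had an FPKM of 2009 in ia03, 1855 in ju145 and 1836 in wild type. It ranked 124th, 155th and 150th among 13818, 13650 and 13785 coding genes with an FPKM of at least 1 in the ia03, ju145 and wild type libraries. The least abundant, lbp-8, had an FPKM of 3.65 in ia03, 2.91 in ju145 and 3.57 in wild type. Only 15.6%, 13.6% and 15.3% of those coding genes lay below it in the ia03, ju145 and wild type libraries. The highest level in the family was thus 549.6 times the lowest in ia03, 638 times in ju145 and 515 times in wild type. The median FPKM of the lbp genes was 249 in ia03, 209 in ju145 and 262 in wild type, against 17.9, 15.9 and 18.9 for the coding genes at that floor in the same libraries. Of the 9 genes, lbp-8 alone lay below the coding median.

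**Figure D1:**
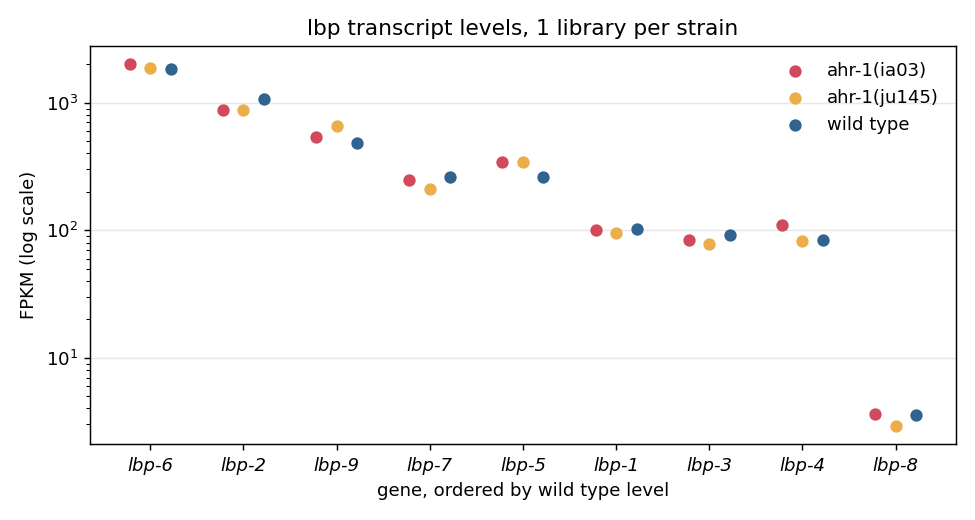
FPKM of each lbp gene (log scale) in the ia03, ju145 and wild type libraries, 1 point per library, with genes ordered by their wild type level. lbp-6 stood highest, at 1836 to 2009, and lbp-8 lowest, at 2.91 to 3.65, and the points of 1 gene lay close together beside the distance between genes.

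Ordered by level, lbp-6 came before lbp-2 and lbp-2 before lbp-9 at the top of all 3 libraries, and lbp-8 came last. With no replicates, the range over the 3 libraries is the only spread at hand for judging neighbours in that order. As the libraries are of 3 strains, it also holds any difference between strains and is not a spread of repeats. By that range lbp-6 (1836 to 2009), lbp-2 (870 to 1073) and lbp-9 (483 to 653) did not overlap each other or any other member. The genes lbp-5 (262 to 342) and lbp-7 (209 to 262) met at their ends and exchanged places, with lbp-5 the higher of the pair in both mutants and lbp-7 marginally so in wild type, where both stood at 262. The range of lbp-4 (82.6 to 109) overlapped those of lbp-1 (95.1 to 102) and lbp-3 (78.1 to 92.0), and lbp-4 changed place between libraries, while lbp-1 stood above lbp-3 in all 3.

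The summed FPKM of the family was 4318 in ia03, 4187 in ju145 and 4196 in wild type. This sum in ia03 was 103% of that in wild type, and in ju145 99.8%. It made up 0.284% of all summed FPKM in ia03, 0.244% in ju145 and 0.235% in wild type. That total takes in all 45343 features whatever their status or level, so this share also moves with the other features. lbp-6 and lbp-2 together held 66.9% of the lbp sum in ia03, 65.1% in ju145 and 69.3% in wild type. The share of lbp-2 was 20.3% in ia03, 20.8% in ju145 and 25.6% in wild type, while that of lbp-9 was 12.5%, 15.6% and 11.5% and that of lbp-5 was 7.93%, 8.13% and 6.23% in the same order of libraries. In whole animals, fewer cells of the type that makes a transcript and less of it per cell cannot be told apart.

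**Figure D2:**
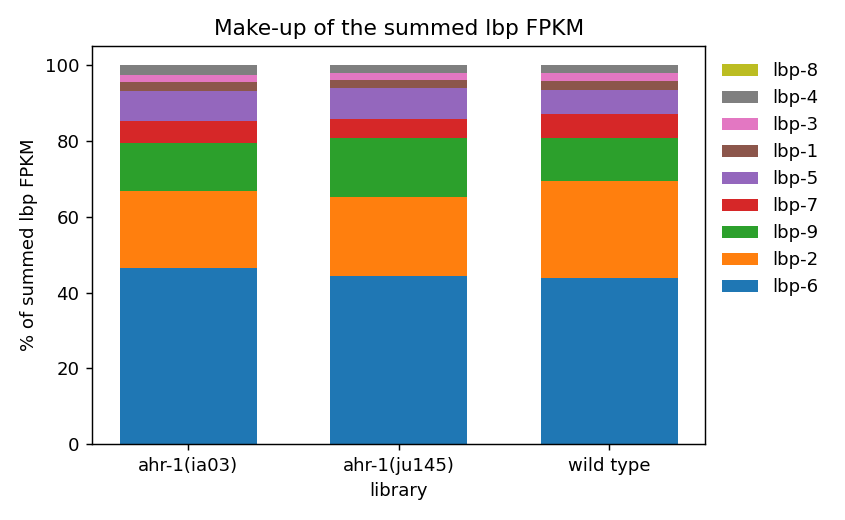
Share of each lbp gene in the summed lbp FPKM (%), 1 bar each for the ia03, ju145 and wild type libraries. lbp-6 held 46.5%, 44.3% and 43.8% of the sum in ia03, ju145 and wild type, and the band of lbp-2 was narrower in both mutants than in wild type, at 20.3% and 20.8% against 25.6%.

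Levels in each mutant library were set against wild type as the log2 ratio of FPKM + 1, and a difference of at least 2-fold on that scale was counted. The count covered features whose status in the authors' tables was OK and whose FPKM reached 1 in either library. No lbp gene differed by 2-fold in ia03, where 6.78% of 14783 measured genes did (2.52% upwards and 4.26% downwards). None did in ju145 either, where 4.90% of 14686 genes did (1.36% upwards and 3.54% downwards). Between the mutants the count was also 0, beside 2.66% of 14384 genes (1.28% with ia03 higher and 1.38% with ia03 lower). A count of 0 among 9 genes is near these shares and says nothing particular about the family. A limit of 1.5-fold was passed by no lbp gene in any of the 3 comparisons, against 19.9% of all measured genes for ia03 against wild type, 16.7% for ju145 against wild type and 10.3% for ia03 against ju145. When the libraries were first rescaled by their median ratio, a step combined with this limit after seeing the data, lbp-9 and lbp-5 passed 1.5-fold in ju145 against wild type, where 13.7% of all measured genes did, and no lbp gene passed in ia03 against wild type (19.8%) or ia03 against ju145 (9.20%).

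The authors' deposited tables gave none of the 9 genes a q-value under 0.05, whereas 5.38% of the features with status OK in the ia03 table and 8.52% of those in the ju145 table had one. Those q-values compare 1 library with 1 other and hold no variation between cultures. The smallest q in the authors' deposited table for ia03 was 0.387, for lbp-5. In the authors' deposited table for ju145 it was 0.179, for lbp-9, whose p-value there of 0.0353 was the only one under 0.05 among the lbp genes of either table.

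All 9 log2 ratios lay between the 5th and the 95th percentile of all measured genes in each comparison. In ia03 the lbp ratios ran from -0.29 to 0.39 with a median of 0.027, beside a median of -0.018 over all measured genes, and 5 genes were above wild type and 4 below. In ju145 they ran from -0.32 to 0.43 with a median of -0.10, beside -0.18 over all genes, and 3 genes were above wild type and 6 below. The ju145 library as a whole lay below wild type, with 71.7% of its measured genes under a ratio of 0. Relative to the median of all genes, 5 lbp genes were higher and 4 lower in ju145. The median of the lbp genes therefore changed sign, to 0.10, when the ju145 library was rescaled by the median ratio, and to 0.12 under rescaling by the upper quartile. The median absolute log2 ratio of the lbp genes was 0.13 in ia03 and 0.23 in ju145, beside 0.22 and 0.26 over all measured genes. Both sets of ratios use the same wild type library.

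**Figure D3:**
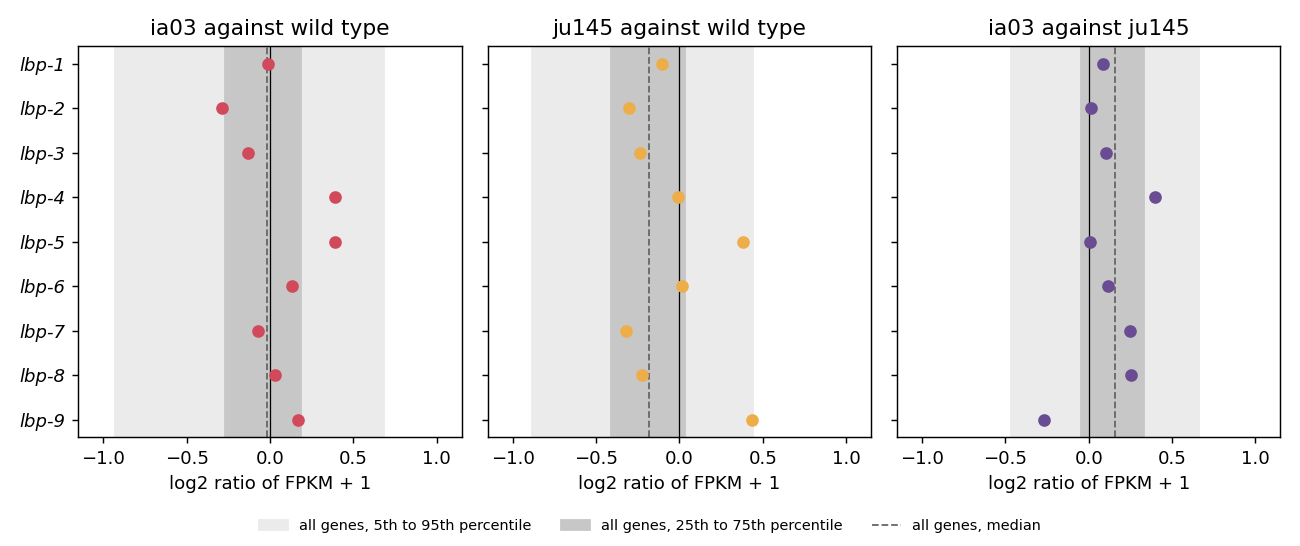
Log2 ratio of FPKM + 1 for each lbp gene in ia03 against wild type, ju145 against wild type and ia03 against ju145, 1 point per gene. Shaded bands span the 25th to 75th and the 5th to 95th percentiles of all measured genes and the dashed line marks their median; every lbp gene lay inside the wider band, from -0.29 to 0.39 in ia03 and from -0.32 to 0.43 in ju145.

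The genes lbp-1, lbp-2 and lbp-3 encode members with a predicted signal for secretion. They lie next to each other on chromosome X in the order lbp-3, lbp-1, lbp-2 and on the same strand. In the coordinates of the files, counted from 1 and of a genome build not given in the sources used here, lbp-3 (F40F4.4) spans 3256998 to 3258146, lbp-1 (F40F4.3) 3259090 to 3259843 and lbp-2 (F40F4.2) 3260598 to 3261461. Only 943 bases separate lbp-3 from lbp-1 and 754 separate lbp-1 from lbp-2, with no other feature of the tables between them. Despite this closeness lbp-2 was far more abundant than its neighbours. The FPKM of lbp-2 was 878 in ia03, 870 in ju145 and 1073 in wild type, so both mutants were below wild type as deposited. Its FPKM in ia03 was 0.818 times that in wild type and in ju145 0.811 times, with log2 ratios of -0.29 and -0.30. After rescaling by the median ratio these log2 ratios were -0.27 in ia03 and -0.096 in ju145, so the likeness of the mutants rests on the scaling. The FPKM of lbp-1 was 101 in ia03, 95.1 in ju145 and 102 in wild type, and that of lbp-3 was 84.0, 78.1 and 92.0. Thus lbp-2 stood 8.69 times as high as lbp-1 in ia03, 9.15 times in ju145 and 10.5 times in wild type, while lbp-1 stood 1.20, 1.22 and 1.11 times as high as lbp-3. All 3 genes were below wild type in both mutants as deposited, with log2 ratios of -0.015 and -0.10 for lbp-1 and -0.13 and -0.23 for lbp-3 in ia03 and ju145. For lbp-1 this direction rests on the scaling, since either rescaling put it above wild type in both mutants. Under either rescaling lbp-2 and lbp-3 stayed below wild type in both mutants, but in ju145 only by little. After rescaling by the upper quartile the log2 ratio of lbp-2 in ju145 was -0.079. That of lbp-3 in ju145 was -0.029 by the median ratio and -0.013 by the upper quartile. Whether reads were shared between these related genes was not tested.

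The pair lbp-5 (W02D3.7) and lbp-6 (W02D3.5) lies on chromosome I, at 6731270 to 6732281 and at 6724918 to 6729379, both on the minus strand. The files give lbp-6 the joint span of itself and mec-6, a gene needed for touch receptor channels, whose FPKM was 1.98 in ia03, 1.23 in ju145 and 1.58 in wild type. lbp-5, the member linked to fat storage, had an FPKM of 342 in ia03, 340.5 in ju145 and 262 in wild type. Both mutants were thus above wild type, at 1.31 and 1.30 times the wild type FPKM as deposited. Its log2 ratios were 0.39 in ia03 and 0.38 in ju145, and 0.41 and 0.59 after rescaling by the median ratio, which puts ju145 above ia03. In ia03 12.0% of all measured genes had a higher ratio than lbp-5, and in ju145 6.24% did. In the authors' deposited tables its q-value was 0.387 for ia03 and 0.262 for ju145. The neighbour lbp-6, predicted to encode a protein that stays inside the cell, was at a log2 ratio of 0.13 in ia03 and of 0.015 in ju145. lbp-6 was 5.87 times as high as lbp-5 in ia03, 5.45 times in ju145 and 7.02 times in wild type.

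On chromosome V, lbp-7 (T22G5.2, 13879536 to 13880200) and lbp-8 (T22G5.6, 13890686 to 13891348) lie 10485 bases apart on the plus strand, with 3 features of the tables between them. lbp-7, like lbp-6 predicted to stay inside the cell, had an FPKM of 249 in ia03, 209 in ju145 and 262 in wild type, so ju145 was the lowest library. Its log2 ratio was -0.071 in ia03 and -0.32 in ju145, where it was the lowest of the family, at 0.800 times the wild type FPKM. Of all measured genes 33.4% had a still lower ratio in ju145. After rescaling by the median ratio the log2 ratio of lbp-7 in ju145 was -0.12. lbp-8, the lysosomal lipid carrier, had an FPKM of 3.65 in ia03, 2.91 in ju145 and 3.57 in wild type. On the same scale its log2 ratios were 0.027 in ia03 and -0.22 in ju145, and at such low levels the added 1 understates a difference. Its FPKM in ju145 was 0.815 times that in wild type, and after rescaling by the median ratio its log2 ratio there was -0.068. lbp-7 was 68.1 times as high as lbp-8 in ia03, 72.0 times in ju145 and 73.4 times in wild type. The span of lbp-8 in the files is shared with 21ur-15418, a piRNA gene listed at 0 in all 3 libraries.

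The remaining members, lbp-4 and lbp-9, lie alone on chromosome V, lbp-9 (Y40B10A.1) at 2068448 to 2069142 and lbp-4 (ZK742.5) at 7820557 to 7821457. lbp-4 had an FPKM of 109 in ia03, 82.6 in ju145 and 83.0 in wild type, so as deposited the ia03 library stood apart from the other two. Its log2 ratio was 0.39 in ia03 and -0.0069 in ju145, and 0.40 between ia03 and ju145, where 17.9% of all measured genes had a higher one. After rescaling by the median ratio its log2 ratio was 0.20 in ju145 against wild type and 0.23 between ia03 and ju145, so the place of ju145 beside wild type rests on the scaling. lbp-9 had an FPKM of 541 in ia03, 653 in ju145 and 483 in wild type, with both mutants above wild type and ju145 the highest. Its log2 ratio of 0.43 in ju145 was the highest of the family, and 5.13% of all measured genes lay above it. In ia03 its log2 ratio was 0.17, and between ia03 and ju145 it was -0.27, as deposited the only one of the 9 below 0, with 10.4% of all measured genes lower. Relative to the median of all genes in ju145, the ratios of lbp-9 and lbp-5 were 0.62 and 0.56.

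Between the mutants the lbp ratios ran from -0.27 for lbp-9 to 0.40 for lbp-4, with a median of 0.10 beside 0.15 over all measured genes. As deposited 8 of 9 genes were higher in ia03 than in ju145, but 3 of 9 were above the median of all genes. The lbp median changed sign, to -0.068, after rescaling by the median ratio, and to -0.056 after rescaling by the upper quartile. As deposited lbp-5 and lbp-2 differed least between the mutants, with log2 ratios of 0.0079 and 0.013, but after rescaling by the median ratio these were -0.17 and -0.16 and the smallest were those of lbp-6 (-0.059) and lbp-3 (-0.068).

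The exons of the longest annotated transcript add up to between 481 nt (lbp-5) and 759 nt (lbp-2). lbp-5, lbp-6, lbp-7 and lbp-8 have 2 exons, lbp-1, lbp-2, lbp-4 and lbp-9 have 3, and lbp-3 has 4. The FPKM of transcripts this short depends strongly on the length correction.

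Genes of related lipid pathways were read from lists chosen with earlier results of these data known, and no list was tested. Of 7 measured fatty acid and retinol binding (far) genes, which encode another nematode family of lipid carriers, none differed by 2-fold in either mutant. Their median log2 ratio was 0.19 in ia03 and 0.070 in ju145. The largest far ratios were those of far-8, at an FPKM of 100.3 in ia03, 90.6 in ju145 and 131 in wild type, and far-5, at 56.1, 31.4 and 38.6. Summed over 8 genes the far family reached an FPKM of 9688 in ia03, 10343 in ju145 and 9697 in wild type, above the lbp sum in every library. Of 7 acyl-CoA binding genes, whose proteins carry activated fatty acids, none passed 2-fold, and the medians were 0.24 in ia03 and 0.030 in ju145. The lowest log2 ratio of these in both mutants was that of acbp-4. Its FPKM was 13.2 in ia03, 14.7 in ju145 and 26.4 in wild type, and acbp-6 had 18.5, 34.1 and 26.03.

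A list of lipid-sensing receptors and cofactors, with nhr-49 and the lipase gene lipl-4 on it, was read as well. lipl-4, the lysosomal lipase upstream of LBP-8, was below the floor, at an FPKM of 0.690 in ia03, 0.170 in ju145 and 0.479 in wild type. The 6 measured receptors and cofactors had a median ratio of -0.0012 in ia03 and of -0.039 in ju145, and none was 2-fold different. Among them nhr-49 had an FPKM of 45.7 in ia03, 40.6 in ju145 and 49.1 in wild type, and nhr-13 had 5.39, 4.24 and 4.21. Of 10 listed target genes of NHR-49, 7 were measured. Their median log2 ratio was 0.50 in ia03, where 6 of 7 were above wild type, and -0.069 in ju145, where 3 of 7 were, and none differed by 2-fold in either. Of all measured genes 52.5% were below wild type in ia03 and 71.7% in ju145. Relative to the median of all measured genes, 6 of 7 targets were higher in ia03 and 7 of 7 in ju145. The carnitine palmitoyltransferase gene cpt-5 had an FPKM of 77.4 in ia03, 40.8 in ju145 and 39.6 in wild type, and the stearoyl-CoA desaturase gene fat-7 had 188, 129 and 97.6. The genes acs-2 and cpt-2 had status FAIL in both of the authors' deposited tables and were not compared. Their FPKM was 34.7 and 66.1 in ia03, 30.4 and 53.9 in ju145, and 37.5 and 73.8 in wild type. The remaining target, fmo-2, was below the floor, at an FPKM of 0.0136 in ia03, 0.263 in ju145 and 0.181 in wild type. The targets left out of the comparison were thus all below wild type in ia03. All 10 genes of fat synthesis and storage were measured, with a median ratio of 0.023 in ia03 and of -0.12 in ju145 and none 2-fold different. The largest ratios there were those of the lipase gene atgl-1, at an FPKM of 14.9 in ia03, 15.01 in ju145 and 21.1 in wild type, and of the fatty acid synthase gene fasn-1, at 94.0, 80.9 and 67.5. Relative to the median of all measured genes in ju145, the medians of these 5 lists there were 0.25 for the far genes, 0.21 for the acyl-CoA binding genes, 0.15 for the receptors and cofactors, 0.12 for the NHR-49 targets and 0.070 for fat synthesis and storage.

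**Figure D4:**
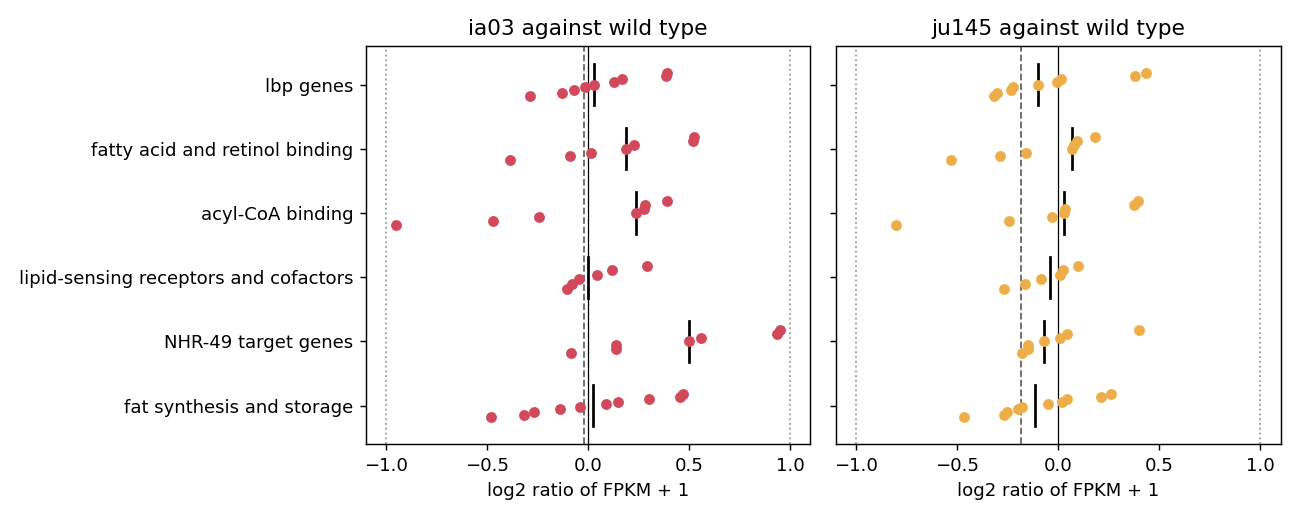
Log2 ratio of FPKM + 1 in ia03 (left) and ju145 (right) against wild type for the lbp genes and 5 lists of lipid genes, 1 point per measured gene, with list medians as black bars, the median of all measured genes dashed and 2-fold dotted. No point lay beyond 2-fold, and the 7 measured NHR-49 targets had the highest median in ia03, at 0.50, against -0.069 in ju145. The median of all measured genes was -0.018 in ia03 and -0.18 in ju145.

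Transcripts of the tissues that whole L4 animals hold were all present, with none of the markers listed for intestine, body wall muscle, hypodermis, neurons, germline or sperm at 0 in any library. The sums that follow take in every listed marker, also those with status FAIL in the authors' deposited tables (ges-1, act-5, dpy-7, egl-3, cgh-1 and, for ia03, mex-3). The summed FPKM of 10 intestine markers was 8223 in ia03, 9586 in ju145 and 8835 in wild type. Of the 8 that could be compared, 6 were below wild type in ju145, where 71.7% of all measured genes were. Their median log2 ratio there was -0.12, beside -0.18 over all measured genes, and 5 of the 8 lay above the latter. The summed FPKM of 8 muscle markers was 9889, 11591 and 11318 in the same order of libraries. That of 10 hypodermis markers was 772, 581 and 509, and that of 10 neuron markers 453, 464 and 454. For 8 germline markers it was 1372 in ia03, 1487 in ju145 and 1644 in wild type, and for 8 sperm markers 1428, 1812 and 2552. The moulting genes, whose levels follow the larval cycle, summed to 772 in ia03, 458 in ju145 and 345 in wild type, with 5 of 10 (mlt-11, noah-1, noah-2, fbn-1 and wrt-10) at least 2-fold higher in ia03 and none in ju145, beside 2.52% and 1.36% of all measured genes. The yolk genes, made mostly in the intestine of adults, summed to 4183, 5751 and 8211, with 4 of 6 (vit-3, vit-4, vit-5 and vit-6) at least 2-fold lower in ia03 and none in ju145, beside 4.26% and 3.54% of all measured genes. The part of these differences in the lbp levels was not tested.

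The lbp gene with the largest sum of absolute log2 ratios in both mutants was lbp-5, at 0.77. Among 5943 other genes with a locus name and measured in both mutants, the nearest to it in log2(FPKM + 1) over the 3 libraries was cut-2, a cuticlin gene, at a Euclidean distance of 0.089 and an FPKM of 327 in ia03, 351 in ju145 and 255 in wild type. It was followed by the histone gene his-35 at 0.11, the C-type lectin gene clec-50 at 0.12, the collagen gene col-170 at 0.15 and the peroxiredoxin gene prdx-3 at 0.18. The likeness rests on 3 values per gene, level included.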

How the data were processed

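RNA of whole L4 animals of 3 strains was sequenced, 1 library per strain. The submitters' processing notes name Cufflinks 1.3.0, Cuffdiff, TopHat 1.3.1, Bowtie2 2.0.2, SAMtools 0.1.16 and FastQC without saying what each did. The authors deposited 1 table per mutant that holds the FPKM of the mutant and of wild type, with a p-value and a q-value per feature, per the file headers. Both tables hold the same wild type FPKM for each of the 45343 features, which let all libraries be read together. FPKM holds no counts, so the depth behind a value is unknown here and no counting interval is given.

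The log2 ratio of FPKM + 1 was computed over all features whose status was OK and whose FPKM reached 1 in either library, and 2-fold counted as a difference of size. The members and lists were chosen with earlier results of these data known. All lbp genes are named. Of each list of lipid genes, the members past 2-fold are named, otherwise the pair with the largest absolute ratio. Of the marker lists, only moulting genes past 2-fold and markers that could not be compared are named. lipl-4, acs-2, cpt-2 and fmo-2 were named after their values were seen. Symbols came from the files and RefSeq, exons and strands from Ensembl release 115 by name. Starts in the files were raised by 1, because the span exceeded the annotated one by 1 for 11714 of 44059 features matched by name and equalled it for 267. Protein and promoter sequences were not used here. The alternatives were other pseudocounts, floors, scalings, size and q limits, and all features whatever their status. Computation used Python 3.11.15, numpy 2.4.6, pandas 2.3.3 and matplotlib 3.10.9.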

Additional observations from a re-analysis of the deposited data

How the results depend on the processing

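No lbp gene passed 2-fold in any comparison under the following alternatives: pseudocounts of 0.1 and 5, no floor or a floor of FPKM 5 (which left out lbp-8), both rescalings, all features whatever their status, limits of 1.5-fold and 4-fold, and, against wild type, the size rule with the authors' q under 0.05. Only the pseudocount of 0.1, the rescalings and the limit of 1.5-fold could have raised this count. The others could only return 0 again. All 9 genes had status OK, reached an FPKM of 1 and lay below 2-fold, and a pseudocount of 5 only shrinks ratios. No lbp gene had a q under 0.01 in the authors' deposited tables, which follows from none being under 0.05. In a combination chosen after seeing the data, rescaling by the median ratio with a limit of 1.5-fold, 2 lbp genes passed in ju145 against wild type, lbp-9 (log2 ratio 0.64) and lbp-5 (0.59), beside 13.7% of all measured genes, and 0 passed in ia03 against wild type (19.8%) and in ia03 against ju145 (9.20%). The lbp median in ju145 against wild type was 0.10 after rescaling by the median ratio and 0.12 by the upper quartile, against -0.10 as deposited. In ia03 against ju145 it was -0.068 and -0.056, against 0.10. A single ratio changed sign under either rescaling for lbp-1 in ia03 against wild type, for lbp-1 and lbp-4 in ju145 against wild type, and for lbp-1, lbp-2, lbp-3, lbp-5 and lbp-6 between the mutants. The other alternatives could not change a sign, because none of them rescales a library. No paired analysis was possible because each strain has 1 library, and for the same reason no replicate could be left out.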
